A study of Mus musculus with 8 samples.

Results

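Serpins are a superfamily of proteins that mostly block proteases. They are defined here as the genes whose symbol in the array annotation starts with Serpin, a clade letter from a to i and a digit, which gave 49 genes with 60 probes among the 16593 named genes and 25697 probes of the array. Of these genes 39 had 1 probe, 9 had 2 and 1 had 3. Each measurement comes from the whole liver of a male C57BL/6J mouse aged 21 weeks, with 4 wt and 4 TgC6hp55 animals and 1 Illumina Mouse Ref-8 Expression BeadChip per animal, on which the brightness of beads carrying a gene's probe reports its mRNA. TgC6hp55 mice carry the coding sequence of human TNFR1 behind the mesenchymal CollagenVI(a1) promoter, followed by a human growth hormone (hGH) minigene, and the wt animals carry neither. Per the study's methods, the mice used were littermates or had been housed together since weaning, and the labels do not say which founder's descendants the 4 livers came from. The comparison asks which liver mRNAs differ between the genotypes, and neither transgene product was analysed here. In whole liver, fewer cells of a type and less RNA per cell cannot be told apart.

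A classical serpin offers an exposed loop as bait. The protease that cuts the loop is dragged across the serpin, deformed and trapped, so that each serpin molecule works once. Clade A holds the secreted antitrypsin-like serpins, most of them made by hepatocytes, and includes members that no longer inhibit proteases and instead carry hormones in plasma. Clade B serpins stay mostly inside cells. Clades C, D, F and G hold plasma serpins that restrain clotting, fibrinolysis and complement, clade H holds a collagen chaperone of the endoplasmic reticulum, and clade I is named for neuroserpin.

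Values are normalized intensities on the log2 scale, and only probes detected (p under 0.05 against the negative control beads) on 4 or more arrays were tested. Of the 60 probes 26 passed, for 20 genes: 12 of 16 in clade A, 3 of 25 in clade B, the single genes of clades C, D and G, both genes of clade F and none of clades H and I. Where several probes of a gene passed, the brightest stood for it. Differences are TgC6hp55 minus wt, with the standard error (SE) of limma's fit and Benjamini-Hochberg adjusted p-values over all 8540 features tested. Of the 20 genes, 7 passed an adjusted p of 0.05, 2 of them higher and 5 lower in TgC6hp55 livers. Of all features tested, 11% passed, 6.48% being higher and 4.51% lower. The 2 genotypes did not overlap for 9 of the 20 genes, against 16.8% of all features. The median log2 difference was -0.02 over the 20 genes and -0.01 over all features, so that the family held large changes in both directions around a centre near 0.

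The mean signal was 167 to 179 in wt livers and 112 to 224 in TgC6hp55 livers, with the lowest value in TgC6hp55 replicate 4, and 10541 to 12011 probes were detected per array. Correlations between arrays were 0.986 to 0.991 within wt, 0.981 to 0.991 within TgC6hp55 and 0.957 to 0.971 between genotypes. Of 5 hepatocyte markers on the array 4 were detected in every liver, the summed level of all 5 being 24900 to 26700 in wt and 24100 to 29000 in TgC6hp55. Fabp1 was detected in none. Wt replicate 3 also carried RNA of the exocrine pancreas, with Cela2a at 4026 on the linear scale against 22.7 to 53.5 in the other 7 livers. Serpini2, the pancreatic member of clade I, was not detected there or in any other liver, and all 7 calls held in fits without that liver.

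**Figure D1:**
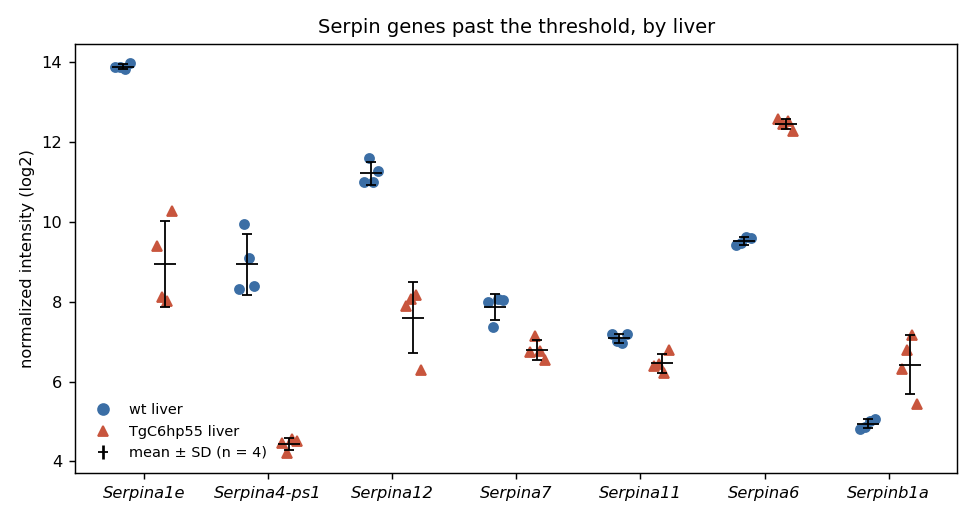
Normalized intensity (log2, vertical axis) of the 7 serpin genes with an adjusted p under 0.05 in each wt liver (circles) and TgC6hp55 liver (triangles), with mean ± SD (n = 4). No gene's 2 groups overlap, and TgC6hp55 replicate 4 is the highest of its group for Serpina1e, at 10.28, and the lowest for Serpina12, at 6.28.

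The Serpina1 genes encode the mouse forms of alpha-1-antitrypsin, the main plasma inhibitor of neutrophil elastase. Mice carry several copies side by side on chromosome 12, and 5 of them (Serpina1a to Serpina1e) were tested. Serpina1e stood at 13.87, 13.87, 13.82 and 13.97 in wt livers. In TgC6hp55 livers it stood at 9.39, 8.11, 8.01 and 10.28. Every TgC6hp55 liver lay far below every wt liver, and the spread within the genotypes was unequal, with an SD of 0.06 in wt and 1.09 in TgC6hp55. The log2 difference was -4.94 (SE 0.40, adjusted p = 7.55e-06 in limma), a 30.7-fold lower signal. On the scale of the deposited intensities the means were 15750 and 489, and in wt livers the Serpina1e probe was among the 9 brightest of the array.

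No probe of the other Serpina1 genes showed a drop of this size. The brighter Serpina1a probe differed by -0.20 (95% interval -0.54 to 0.15, adjusted p = 0.495 in limma), and its other probe was lower by a smaller step, at -0.39. Serpina1c differed by -0.07 (-0.26 to 0.12). Serpina1d differed by 0.03 (-0.18 to 0.23). Serpina1b is measured by the brightest probe of every array, with a deposited intensity of 18039 to 20958. Quantile normalization gives the brightest probe the same value on each array, here 14.22, so this probe could show no difference. The other Serpina1b probe, at 13.65 to 13.82 in wt and 13.70 to 13.87 in TgC6hp55, differed by 0.03 (SE 0.10). The probes for Serpina1b, Serpina1c and Serpina1d ranked between 1 and 23 on all arrays, and that for Serpina1e between 5 and 9 in wt livers, so these signals lay at the upper end of the measured range. Whether differences are compressed there was not tested, for the fold of Serpina1e as well. The sequences of these genes are close and probe sequences were not used here, so how far each probe reads only its own copy was not tested.

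**Figure D2:**
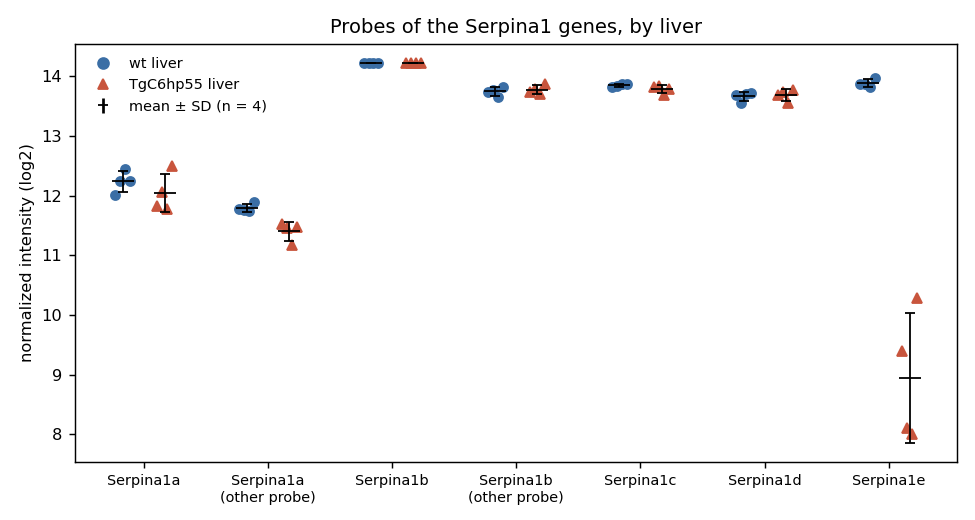
Normalized intensity (log2, vertical axis) of the 7 probes of Serpina1a to Serpina1e in wt (circles) and TgC6hp55 (triangles) livers, with mean ± SD (n = 4). Serpina1e fell from 13.88 to 8.95 on average, while the other probes kept group means within 0.39 of each other.

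To set Serpina1e beside the other copies, the aligned stretch before the annotated start of each gene is shown (RefSeq, GRCm38.p6, 5′ to 3′). Lower case marks the base that at least 3 of the 5 genes share, and capitals mark a base unlike it or extra to it.
Serpina1a (chr12:103863625-103863812, minus strand): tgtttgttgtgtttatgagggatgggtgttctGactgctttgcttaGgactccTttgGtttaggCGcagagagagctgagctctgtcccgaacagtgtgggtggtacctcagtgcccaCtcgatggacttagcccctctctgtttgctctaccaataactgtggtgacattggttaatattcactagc
Serpina1b (chr12:103738200-103738389, minus strand): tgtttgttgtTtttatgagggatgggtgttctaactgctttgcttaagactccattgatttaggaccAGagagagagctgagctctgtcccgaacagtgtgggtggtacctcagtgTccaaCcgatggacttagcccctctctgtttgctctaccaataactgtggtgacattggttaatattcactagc
Serpina1c (chr12:103904962-103905149, minus strand): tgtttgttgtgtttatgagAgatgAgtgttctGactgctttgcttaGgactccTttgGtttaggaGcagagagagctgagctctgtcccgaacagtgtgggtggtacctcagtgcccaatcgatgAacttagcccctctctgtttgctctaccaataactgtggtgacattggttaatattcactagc
Serpina1d (chr12:103773634-103773822, minus strand): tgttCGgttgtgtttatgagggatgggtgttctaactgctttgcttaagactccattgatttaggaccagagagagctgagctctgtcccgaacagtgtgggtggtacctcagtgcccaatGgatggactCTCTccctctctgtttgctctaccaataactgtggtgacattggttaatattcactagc
Serpina1e (chr12:103956960-103957147, minus strand): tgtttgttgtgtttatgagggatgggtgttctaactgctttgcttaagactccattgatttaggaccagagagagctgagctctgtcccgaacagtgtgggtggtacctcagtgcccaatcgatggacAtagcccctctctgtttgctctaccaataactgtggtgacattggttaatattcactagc
The stretch spans 188 to 190 bases. Serpina1e carried 1 base unlike the shared one, against 5 in Serpina1b, 7 in Serpina1a, 7 in Serpina1d and 8 in Serpina1c. Its identity to the other copies was 95.2% to 96.8%, within the 92.1% to 97.3% found over all pairs. All 5 stretches end with ggttaatattcactagc, which contains GTTAAT, a core of the sites bound by the hepatocyte factor HNF1. RefSeq places the start of Serpina1e farther downstream than in the other copies, so GTTAAT begins 78 bases before its start and 16 to 27 bases before theirs. Searched on both strands, GTTAAT was found in the 250 bases before the start of 6.52% of 27025 genes. Among the 15 tested serpins with such a window it was found in 6, the 5 copies and Serpina7. A match or its absence is a description of letters and says nothing of which factor was bound.

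Serpina1e lies near the other clade A genes that were lower in TgC6hp55 livers, apart from Serpina7. RefSeq lists 28 Serpina genes and pseudogenes in the chromosome 12 cluster, of which 15 were on the array and 11 were tested. In their order along the chromosome, Serpina10, Serpina6, the Serpina1 copies b, d, a and c, then Serpina1e, Serpina11, Serpina12 and Serpina4-ps1 were tested, with Serpina3n at the far end. The 4 genes from Serpina1e to Serpina4-ps1 were all lower, and no other tested serpin lay between them. Serpina9, which was not tested, lies between Serpina11 and Serpina12. Serpina6, near the opposite end, was higher, and the copies between did not pass. The remaining 17 entries of the cluster, among them most of the Serpina3 copies, were not tested.

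**Figure D3:**
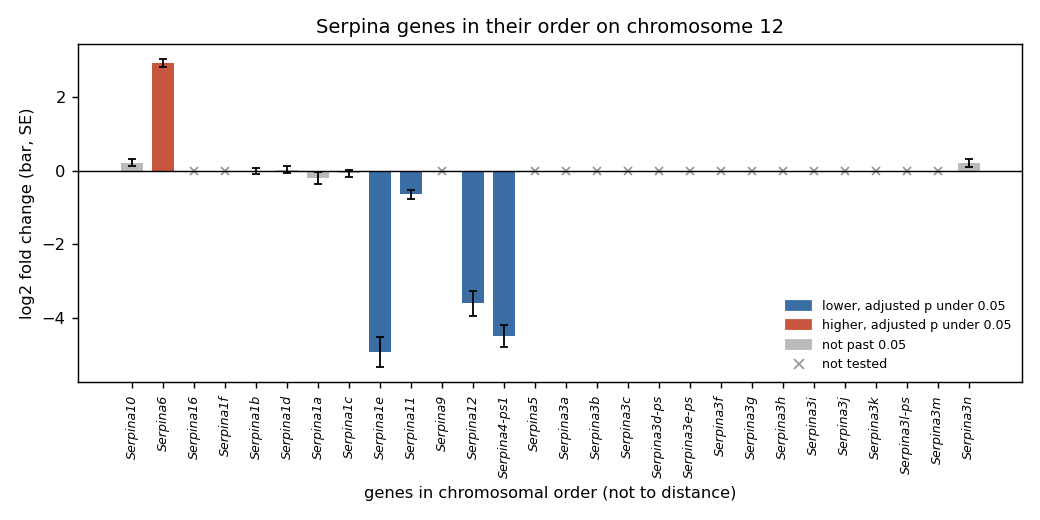
Log2 difference (TgC6hp55 minus wt, bars, with SE) of the Serpina genes in their order on chromosome 12, not drawn to distance, with crosses for genes not tested. Among the tested genes the 4 lower ones, Serpina1e, Serpina11, Serpina12 and Serpina4-ps1, follow each other, with the untested Serpina9 between Serpina11 and Serpina12, and Serpina6, at 2.93, stands near the other end.

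Serpina4-ps1, a transcribed pseudogene related to human SERPINA4 (kallistatin), stood at 8.33, 9.96, 9.09 and 8.39 in wt livers. It stood at 4.47, 4.20, 4.56 and 4.50 in TgC6hp55 livers and was detected on 1 of those 4 arrays. The fitted log2 difference was -4.51 (SE 0.29, adjusted p = 9.36e-07 in limma). Since its signal in TgC6hp55 livers was mostly not above background, a bound is given as well. The gene passed the detection filter only through the wt livers, so it had to differ, and its p and its place among the 5 lower genes rest on that. With each array's lowest detected signal as the floor, it was at least 20.6-fold lower.

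Serpina12 encodes vaspin, a serpin known from adipose tissue as an inhibitor of kallikrein 7 and as a factor tied to insulin sensitivity. Its brighter probe stood at 10.99, 11.59, 11.01 and 11.27 in wt livers and at 7.90, 8.08, 8.16 and 6.28 in TgC6hp55 livers. The groups were far apart, with TgC6hp55 replicate 4 the lowest. The log2 difference was -3.61 (SE 0.35, adjusted p = 3.14e-05 in limma), a 12.2-fold lower signal. Without TgC6hp55 replicate 4 it was -3.17. The adipocyte markers Adipoq, Plin1 and Lep were detected in no liver.

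A second Serpina12 probe was dim. It stood at 5.16, 5.64, 5.10 and 5.13 in wt livers and at 4.37, 4.30, 4.23 and 4.38 in TgC6hp55 livers, where no array detected it. It was lower too, with a log2 difference of -0.93 (SE 0.13, adjusted p = 5.37e-04 in limma over 11100 probes, of which 10.4% passed). It too passed the filter only through the wt livers. With the floor at each array's lowest detected signal, it was at least 1.60-fold lower. The gap between the 2 probes was 5.83 to 6.14 in wt livers and 1.90 to 3.92 in TgC6hp55 livers. In TgC6hp55 the mean gap fell by 2.68. The dim probe lay too near background in wt livers to follow the fall of the brighter one, so the gap had to shrink and its test is not used. Since the filter fixed the direction of the dim probe, that direction adds nothing to the result of the brighter one.

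Serpina11, a clade A serpin expressed in liver, stood at 7.19, 7.02, 6.97 and 7.18 in wt livers and at 6.38, 6.44, 6.22 and 6.78 in TgC6hp55 livers. The change was the smallest among the 7 genes, at -0.64 (SE 0.13, adjusted p = 0.00707 in limma), a 1.55-fold lower signal. SAM with the study's threshold, a fold over 1.7 and an FDR under 1%, did not call it. The 150 bases before its start contain TTCCAGGAA, a match to TTCNNNGAA, the palindrome that STAT5 and other STAT factors bind, and are shown to place it (RefSeq, GRCm38.p6, 5′ to 3′, match in capitals).
Serpina11 (chr12:103989958-103990107, minus strand): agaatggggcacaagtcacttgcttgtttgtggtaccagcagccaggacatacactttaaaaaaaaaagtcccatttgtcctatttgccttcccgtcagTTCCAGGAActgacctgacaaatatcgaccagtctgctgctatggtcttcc
The match begins 51 bases before the start. The pattern TTCNNNGAA reads alike on both strands and was found in the 250 bases before 7.18% of 27025 genes. Among the 15 tested serpins with such a window it was found in Serpina11 and Serpinb6a. No window was available for Serpina6, Serpina4-ps1, Serpinb1a, Serpina10 and Serping1, so a match there was not tested.

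The hormone carriers of clade A moved in opposite directions. Serpina6 encodes corticosteroid-binding globulin, which carries glucocorticoids in plasma and is known to be more abundant in female than in male rodents. It stood at 9.43, 9.46, 9.61 and 9.59 in wt livers and at 12.58, 12.45, 12.52 and 12.27 in TgC6hp55 livers. The livers of each genotype lay close together, with SDs of 0.09 and 0.13. The log2 difference was 2.93 (SE 0.10, adjusted p = 2.74e-09 in limma), a 7.63-fold higher signal and the smallest adjusted p in the family. Serpina7, on the X chromosome, encodes thyroxine-binding globulin. It stood at 8.0, 7.37, 8.07 and 8.04 in wt livers and at 6.73, 7.15, 6.76 and 6.54 in TgC6hp55 livers. The groups came close without overlap, with wt replicate 2 at 7.37 nearest to TgC6hp55 replicate 2 at 7.15. The log2 difference was -1.07 (SE 0.17, adjusted p = 0.00207 in limma), a 2.10-fold lower signal.

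Serpinb1a was the one clade B gene that passed. It encodes the leukocyte elastase inhibitor, found inside neutrophils and other myeloid cells, where it blocks neutrophil serine proteases, and released by mouse hepatocytes. It stood at 4.82, 4.87, 5.02 and 5.05 in wt livers and at 6.31, 6.78, 7.17 and 5.44 in TgC6hp55 livers. All TgC6hp55 livers lay above all wt livers on this scale, replicate 4 by the least. As deposited, the intensities were 12, 13, 17 and 16 in wt and 56, 98, 186 and 17 in TgC6hp55 livers. TgC6hp55 replicate 4 thus equalled wt replicate 3, and its separation rests on the normalization. The wt values lay little above the lowest detected signal of those arrays, 4.57 to 4.60, so the fold depends on the offset used in processing. The log2 difference was 1.49 (SE 0.29, adjusted p = 0.00609 in limma), a 2.80-fold higher signal, and 1.85 without TgC6hp55 replicate 4. SAM with the study's threshold, which the study applied to its arrays, called Serpinb1a (log2 difference 1.24 on the authors' cubic spline values, FDR 0.00148). In the unpaired test of the methods' general statistics the call was lost after Benjamini-Hochberg adjustment (adjusted p = 0.0776, over the genes as in limma).

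Markers of myeloid cells were measured beside it. Of 6 Kupffer cell markers on the array 5 were tested, all 5 higher in TgC6hp55 livers by 0.71 to 0.99. Of these, 2 passed (Adgre1 and Marco, 40%, against 11% of all features). Marco averaged 4.44 in wt livers, below the lowest signal detected there (4.57 to 4.60). It passed the detection filter mainly through the TgC6hp55 livers, so its direction was largely fixed. The sum over all 6 Kupffer cell markers on the linear scale was 283 to 981 in wt and 802 to 1200 in TgC6hp55 livers. Over the 5 tested markers the sum was 263, 490, 963 and 515 in wt replicates 1 to 4, and 908, 1000, 1180 and 783 in TgC6hp55 replicates 1 to 4. Of 5 neutrophil markers on the array, S100a8 and S100a9 were tested and differed by 0.19 and 0.10 without passing, Mpo and Camp were detected in no liver, and the sum of the 5 was 101 to 139 in wt and 121 to 154 in TgC6hp55 livers. Markers of other cells were read as well. Of 6 stellate cell markers 5 were tested, ran from -0.45 to 0.41, and none passed. The sum of the 6 was 1430 to 2160 in wt and 1920 to 2570 in TgC6hp55 livers, with overlap. The 1 tested cholangiocyte marker, Krt7, differed by 0.04 and the 1 tested B cell marker, Cd79b, by 0.42, and neither passed. All 5 tested of 6 endothelial markers were higher, by 0.28 to 0.54, and 1 of them passed (Pecam1, 20%, against 11% of all features). Of the 6, 3 were detected in all wt livers and 5 in all TgC6hp55 livers. Lyve1 at 4.70 and Cdh5 at 4.72 lay near the lowest detected signal in wt. The sum of the 6 was 1620 to 2420 in wt and 2450 to 2650 in TgC6hp55 livers without overlap. Of 6 T and NK cell markers, Cd3e and Cd3g were tested and differed by 0.30 and 0.36 without passing. Gzma was detected in no liver. The sum of the 6 was 123 to 133 in wt and 149 to 167 in TgC6hp55 livers. No T or NK cell marker was detected in all wt livers, and 1 was in all TgC6hp55 livers. Most of this sum is thus near background. The neutrophil sum has the same limit, with 1 marker detected in all wt and 1 in all TgC6hp55 livers. The part of any of these cells in the Serpinb1a difference was not tested. The other tested clade B genes, Serpinb6a and Serpinb6c, relatives of the human intracellular inhibitor SERPINB6, differed by 0.44 (SE 0.19) and -0.04 (SE 0.11) and did not pass.

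None of the 5 tested genes of clades C, D, F and G passed. Serpinc1 encodes antithrombin, the main inhibitor of thrombin and factor Xa, and differed by 0.27 (95% interval 0.02 to 0.51, adjusted p = 0.162 in limma). Serpind1 encodes heparin cofactor II, a further thrombin inhibitor, and differed by 0.07 (-0.16 to 0.30). Serpinf2 encodes alpha-2-antiplasmin, which restrains plasmin, and its 3 probes differed by 0.16 (-0.03 to 0.35), 0.18 and 0.25. The genotypes did not overlap for any of these 3 probes, yet none passed. Serpinf1, which encodes the antiangiogenic factor PEDF and does not inhibit proteases, differed by -0.08 (-0.30 to 0.14). Serping1, the inhibitor of complement C1 and plasma kallikrein, differed by -0.19 (-0.40 to 0.02). These intervals leave room for changes of about the size of their ends and not for the changes seen in Serpina1e, Serpina12 or Serpina6.

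In clade A, Serpina3n, an acute phase inhibitor of chymotrypsin-like proteases, differed by 0.21 (-0.05 to 0.47) and Serpina10, which blocks factor Xa together with protein Z, by 0.22 (0.01 to 0.42). Serpina10 did not overlap between the genotypes, at 11.26 to 11.43 in wt and 11.46 to 11.67 in TgC6hp55 livers, yet did not pass (adjusted p = 0.182 in limma). Over all 13 genes that did not pass, the log2 differences ran from -0.20 to 0.44. Of the 13, 3 reached an unadjusted p under 0.05 in limma, namely Serpina10, Serpinb6a and Serpinc1.

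**Figure D4:**
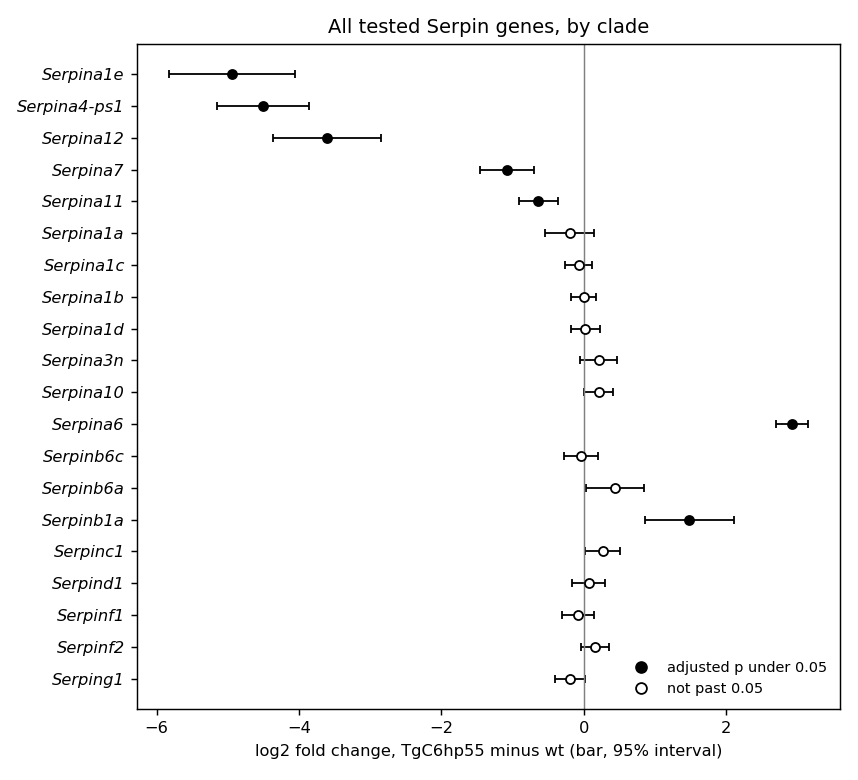
Log2 difference (TgC6hp55 minus wt, horizontal axis, with 95% interval) of the 20 tested serpin genes ordered by clade, with filled points for an adjusted p under 0.05. Of the clade A genes 6 of 12 and of the clade B genes 1 of 3 passed, and none of the 5 in clades C, D, F and G did. The point and interval of Serpina1b measure no change, since normalization holds its probe at 1 value, and Serpina4-ps1 passed the filter only through the wt livers.

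In all, 5 genes had more than 1 probe that passed the detection filter, which gave 7 pairs. Outside Serpina12, the pairs differed by 0.02 to 0.19 on the log2 scale and none passed the exact permutation test, with adjusted p-values from 0.400 to 0.771. With 4 and 4 livers the smallest p is 0.0286, which is 0.200 after adjustment for a single pair out of 7, so no single pair could pass. Serpina1a was the one gene whose call depended on the probe. Its brighter probe stood at 12.01 to 12.44 in wt and 11.78 to 12.49 in TgC6hp55 livers, and the groups overlapped. Its other probe stood at 11.74 to 11.89 in wt and 11.17 to 11.52 in TgC6hp55 livers, did not overlap and passed at -0.39 (SE 0.11, adjusted p = 0.0400 in limma). The difference between these 2 probes was 0.19 (p = 0.371 by the exact permutation test, 0.650 adjusted), which does not settle whether the probes disagree.

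**Figure D5:**
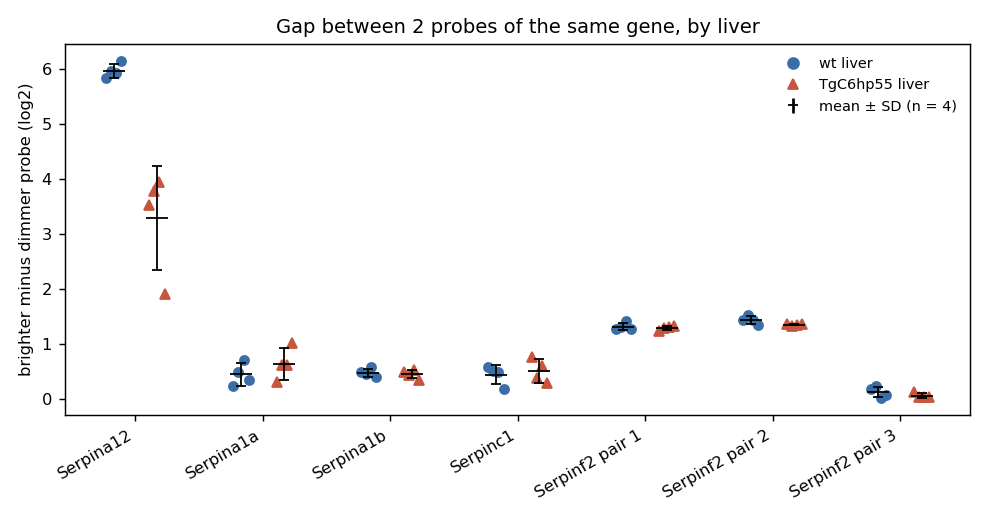
Gap between the brighter and the dimmer probe of a gene (log2, vertical axis) in each wt (circles) and TgC6hp55 (triangles) liver, with mean ± SD (n = 4), for the 7 pairs of filtered probes. The Serpina12 gap, 5.83 to 6.14 in wt, is 1.90 to 3.92 in TgC6hp55 livers, while the groups overlap in the other 6 pairs.

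The other 29 serpin genes had no probe that passed, and for them neither a change nor its absence can be given. Their 34 probes stood at 4.11 to 5.14 on the log2 scale, and 28 of them were detected on no array. Most were clade B genes, 22 of the 29. Serpinh1 encodes the collagen chaperone HSP47 and was detected in 1 wt and 2 TgC6hp55 livers. Serpina9, which lies between Serpina11 and Serpina12, was detected in 2 wt livers, at 4.77 and 5.14, and in no TgC6hp55 liver, at 4.14 to 4.25. Both stood too close to background for a comparison.

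The proteases that serpins restrain and the inhibitors of other families were read for comparison. Of 16 tested serine proteases of clotting, complement, fibrinolysis and leukocyte granules, 2 were higher and 1 was lower. They were Hgfac, the activator of hepatocyte growth factor, at 0.71, the clotting factors F7 at 0.48 and F11 at -0.73. F2, which encodes the precursor of thrombin, the protease that antithrombin blocks, differed by 0.17 (SE 0.10) and did not pass. Of 7 cysteine cathepsins, 2 were higher, namely Ctsc, which activates granule proteases, at 1.57 (SE 0.12, adjusted p = 3.20e-06 in limma), and Ctsb at 0.54. Of 18 inhibitors that are not serpins, 2 were higher and 2 lower. They were Tfpi, an inhibitor of the tissue factor pathway, at 0.61, Itih4 at 0.50, and the murinoglobulins Mug1 and Mug2, broad protease traps of rodent plasma, at -1.34 and -0.61. The shares that passed were 18.8%, 28.6% and 22.2% of the 3 lists, against 11% of all features, and the medians were 0.04, 0.10 and 0.06.

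Serpina3n and the Serpina1 genes belong to the acute phase proteins, of which 20 others were tested. Of these 6 were higher and 1 lower (35%, against 11% of all features), with Mt1 at 4.14, Mt2 at 1.62 and Lcn2 at 1.26 the largest increases and Lrg1 at -0.77 the decrease. The median was 0.12, and Itih4 is in this list too. Mt2 averaged 4.45 in wt livers, below the lowest signal detected there (4.57 to 4.60). It passed the detection filter mainly through the TgC6hp55 livers, so its direction was largely fixed. Among the genes of this list that did not pass were Saa1, Saa2, Saa3, Hp and Crp. Of 11 tested collagens and collagen-modifying enzymes, the partners of Serpinh1, only Col5a1 passed, at 0.45 (adjusted p = 0.0474 in limma). That is 9.09% of this list, near the 11% of all features. Of 12 tested genes known to be higher in male than in female mouse liver all 12 were lower, with a median of -3.92, and of 11 tested genes known to be higher in females all 11 were higher, with a median of 3.56. Of all features 4.51% were lower and 6.48% higher. Several members averaged below the lowest detected signal in the genotype where they were low. Among them were Cyp2b13 at 4.25 and A1bg at 4.38 in wt livers, and Hsd3b5 at 4.41 in TgC6hp55 livers (lowest detected 4.49 to 4.67). Such genes passed the detection filter mainly through the other genotype, so their direction was largely fixed. Both sex-biased lists were drawn up with earlier results of these livers known and are given beside the serpin values as a description only.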

How the data were processed

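Liver RNA of 4 wt and 4 TgC6hp55 mice was measured on 1 array each. The authors deposited linear intensities before normalization, with a detection p-value per probe and array, and intensities after cubic spline normalization, both from GenomeStudio 2011.1 per the labels. Negative intensities in the first table show that a background had been subtracted. The labels name a separate animal for each sample. The descriptions of the TgC6hp55 samples repeat 1 number, so columns were matched by the number in the titles. The deposited intensities before normalization were processed with neqc of limma 3.58.1 in R 4.3.3 (normexp from the detection p-values, offset 16, quantile normalization, log2). Of 25697 probes, 11100 passed the detection filter, and 23978 carried 1 gene symbol and 1719 none. Groups were compared with lmFit and eBayes (two-sided, threshold 0.05), and probes of 1 gene by an exact permutation test with 70 regroupings. The fit was tested on simulated data. Chromosomes, gene order and upstream sequence came from RefSeq (GRCm38.p6), which matched all 49 serpin genes, and since the files name no build, coordinates are given only for the printed upstream stretches, on RefSeq's build. Serpins with an adjusted p under 0.05, with 2 passing probes more than 0.5 apart in their log2 differences, or detected in all livers of 1 group and at most 1 of the other are given by liver, the others by range. Up to 4 changed genes are named per comparison list. The members and lists were chosen with earlier results of these data known. Alternatives were other normalizations, filters and tests, and each liver left out. The number of arrays limits the precision.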

Additional observations from a re-analysis of the deposited data

Results flagged for a closer look

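Within-group outliers were sought for the 20 tested genes in both genotypes, in 38 groups of 4 livers whose values were not all equal. A liver was singled out where its gap to the nearest other liver passed Dixon's 95% critical value, which chance gives in about 1 of 20 groups. This held for 3 livers. Serpina12 in TgC6hp55 replicate 4 was at 6.28, against 7.90 to 8.16 in the other TgC6hp55 livers. Serpina7 in wt replicate 2 was at 7.37, against 8.0 to 8.07 in the other wt livers. Serpinc1 in wt replicate 4 was at 7.78, against 8.02 to 8.07.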

How the results depend on the processing

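Serpina1e, Serpina4-ps1, Serpina12, Serpina7 and Serpina6 passed in the same direction under each of the 20 alternatives, and the log2 differences ran from -5.34 to -4.67, -4.70 to -4.06, -3.81 to -3.17, -1.24 to -0.96 and 2.81 to 2.99. Where the detection filter was applied, Serpina4-ps1 passed it only through the wt livers, so its direction there was fixed. Serpinb1a (1.21 to 1.85) and Serpina11 (-0.75 to -0.56) passed under 19 of 20. Serpinb1a did not pass in the methods' unpaired test after adjustment. Serpina11 did not pass in SAM, whose 1.7-fold threshold lies above its change. All 7 passed with each liver left out. The methods' unpaired test at an unadjusted p under 0.05 gave 5 higher and 6 lower serpins. After adjustment this unpaired test added Serpinf2 (adjusted p = 0.0494). The 938 features called became 293 under median scaling between arrays and 273 in SAM. They became 590 in the adjusted and 1957 in the unadjusted unpaired test. With 1 liver left out they became 612 to 909, the lowest without wt replicate 2. The cause was not tested. Median scaling left 51.9% of calls higher, against 59.0%.

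Sign changes concerned genes that did not pass under either setting. Under median scaling Serpina1b was at -0.001, Serpina1d at -0.075, Serpinb6c at 0.013, Serpind1 at -0.060 and Serpinf2 at -0.006. In the authors' cubic spline values and in SAM on them Serpina1b was at 0.115, and its probe pair differed by 0.081. With 1 liver left out, Serpina1d ran from -0.013 to 0.071 and Serpinb6c from -0.095 to 0.017, and the probe differences ran from -0.060 to 0.003 in Serpina1b, -0.023 to 0.139 in Serpinc1 and -0.029 to 0.010 in the Serpinf2 pair that differed least. The labels do not say that the replicate numbers pair the livers. The correlation of same-numbered deviations from the group means was 0.158, 0.122, 0.011 and 0.112, against -0.166 to 0.075 between different numbers, and 6 of 8 livers correlated best with their own number, a hint from the data only. With the replicate number as a block 912 features and again 2 higher and 5 lower serpins passed. Dim probes and the brightest probes, which normalization holds near 1 value, limit what can be read.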
